A study of Mus musculus with 16 samples.

Results

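The 5 complexes of oxidative phosphorylation are built from proteins of 2 genomes, and their transcripts were followed here in liver neutrophils with and without the receptor for interferon gamma. The mitochondrial class is made of all 13 protein-coding genes of mitochondrial DNA (mt-Nd, mt-Co, mt-Atp and mt-Cytb). The nuclear class is made of protein-coding genes whose symbols start with Nduf, Uqcr, Cox4 to Cox8 or Atp5, together with Sdha, Sdhb, Sdhc and Sdhd. A further 13 names with these starts are pseudogenes or non-coding and were left out. A gene was a member if it had at least 10 counts in at least 8 of 16 libraries, which kept 13 of 13 mitochondrial genes and 80 of 94 nuclear genes, 93 of the 54532 genes in the table. Ndufa5 and Ndufaf1 lay just inside that limit, with 10 counts in 13 libraries each, and Ndufaf2, Ndufaf4 and Ndufaf5 just outside, with 10 counts in 5. All 93 members passed the filter on low counts and were tested. The rule uses total abundance and no difference between genotypes.

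Neutrophils were sorted from the livers of 8 mixed bone marrow chimeras, C57BL/6 mice numbered 2 to 9. Irradiated wild-type hosts had been rebuilt with equal parts of wild-type marrow carrying CD45.1 and Ifngr1-/- marrow carrying CD45.2, a pair of allelic surface markers that the sort used to part the genotypes. Every mouse carried a flank tumour grown from MC38, a line of mouse colon carcinoma, and was given the CD40 agonist labelled aCD40 2 days before its liver was taken. Each mouse gave 1 WT library and 1 library labelled IFNgR1-KO, called Ifngr1_KO here, so that each group had n = 8 and every comparison was made within a mouse. The age of the animals was not given in the sources used here. The host liver was wild type, and no group lacked the tumour, the irradiation or the antibody. Because donor, CD45 allele and gate were the same for all cells of a genotype, they cannot be told apart from it.

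The respiratory chain passes electrons from NADH through complex I, or from succinate through complex II, to complex III, cytochrome c and complex IV, which reduces oxygen. Complexes I, III and IV pump protons, and complex V, the ATP synthase, uses the gradient to make ATP. Mitochondrial DNA encodes core membrane subunits of complexes I, III, IV and V and none of complex II. Its genes lie end to end and are transcribed as long precursors that are then processed into single messengers, while the nuclear subunits come from scattered genes with promoters of their own. Neutrophils are known for few mitochondria and for a reliance on glycolysis.

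The libraries held 12482326 to 21725277 estimated counts, and the Ifngr1_KO total was the higher one in 1 of 8 mice. Ifngr1, the ligand-binding receptor chain, was lower in Ifngr1_KO in all 8 mice, with 228 to 358 CPM in WT and 38.8 to 119 CPM in Ifngr1_KO (log2 fold change -1.94, SE 0.20). CPM are counts relative to each library's total, after trimmed-mean (TMM) scaling of the libraries. The neutrophil markers S100a8, S100a9, Csf3r, Cxcr2 and Ly6g were present in all libraries, and their list summed to 52169 to 83424 CPM in WT and 46534 to 111667 CPM in Ifngr1_KO. The Ifngr1_KO library of mouse 7 stood apart in many of the values below, and values that leaving out that mouse moved by over 1.5 times are also given without it. In that library Csf3r was at 1311 CPM, against 3607 or more in the other 15, and S100a8 was at its highest, 44952 CPM. The test was edgeR's quasi-likelihood test, with mouse as a block and Benjamini-Hochberg adjustment over 9851 genes. It called 276 of them (2.8%) at an adjusted p under 0.05, 47 higher (0.477%) and 229 lower (2.32%) in Ifngr1_KO. Every adjusted p below is from that test unless another tool is named, and fold changes are Ifngr1_KO over WT.

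Transcripts of the mitochondrial class were more abundant in the Ifngr1_KO library of 6 mice and less abundant in that of mice 2 and 4. From mouse 2 to mouse 9, the summed level of the 13 genes in WT was 5480.4, 3761, 12891, 6790.1, 7237, 5712, 2964 and 5169 CPM. In the same order it was 4131, 7148, 9534, 19422, 13716, 26488, 12242 and 17142 CPM in Ifngr1_KO. The WT library of mouse 4 was the highest of its group, the Ifngr1_KO libraries of mice 7 and 5 were the highest of theirs, and the groups overlapped. The means were 6251 ± 3033 CPM in WT against 13728 ± 7192 CPM in Ifngr1_KO (SD, n = 8), or 0.595% and 1.39% of all counts. The log2 ratio within mice averaged 1.06 ± 1.03 (SD, n = 8), close to its own spread, and 0.90 ± 0.99 without mouse 7 (n = 7).

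**Figure D1:**
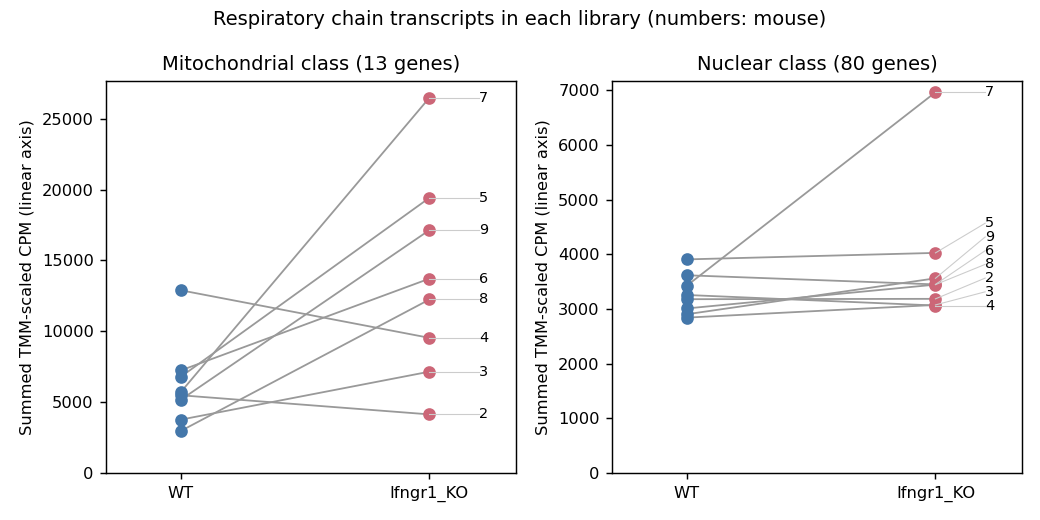
Summed TMM-scaled CPM of the 13 mitochondrial genes (left) and the 80 nuclear genes (right) in each library, with linear axes from 0 and a line joining the WT and Ifngr1_KO libraries of a mouse, numbered at the right. The mitochondrial sum is higher in Ifngr1_KO in mice 3 and 5 to 9 and lower in mice 2 and 4, while the nuclear sum of the Ifngr1_KO library of mouse 7, at 6961 CPM, lies above all others.

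Markers of other cells and of RNA state were read beside this class. In bulk libraries, fewer cells of a type and less RNA per cell cannot be told apart. Of 28 hepatocyte markers 25 were tested and 0 called, with 3 at an unadjusted p under 0.05, where 16.3% of all genes were. They summed to 4018 to 8294 CPM in WT and 3612 to 7715 CPM in Ifngr1_KO, lower in Ifngr1_KO in 8 of 8 mice. Most of that sum was Hp, which neutrophils also express. The defining hepatocyte markers Alb, Apoa1 and Ttr were above 0 in all libraries and higher in Ifngr1_KO in 4 of 8 mice each. Of 11 tested transcripts retained in the nucleus or tied to stress, 1 was called higher, where 0.477% of all genes were. It was Rn7sk, the RNA of a complex that holds back transcription elongation, from 16.8 ± 7.24 to 58.3 ± 42.2 CPM (adjusted p = 0.0483, 8 of 8 mice). Its highest level was 155 CPM, in the Ifngr1_KO library of mouse 7. The libraries were primed with oligo-dT, and how well such counts follow the level of Rn7sk was not tested. Its call was lost without mouse 3, 5, 6, 8 or 9 (adjusted p = 0.0783 to 0.124). The sum of that list was higher in Ifngr1_KO in 7 of 8 mice, all but mouse 7. The log2 ratio of the sums averaged 0.07 ± 0.25 (SD, n = 8), and 0.15 ± 0.11 without mouse 7. It was -0.49 in mouse 7 and highest in mouse 4, at 0.37. The median log2 fold change of the 11 transcripts was -0.03, with 5 above 0 and 6 below. Without mouse 7 it was 0.09, with 8 above 0. The part of this list in the mitochondrial result was not tested.

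None of the 13 mitochondrial genes was called, against 0.477% of all genes called higher in Ifngr1_KO, although each had a fitted log2 fold change above 0. All 13 had an unadjusted p under 0.05, where 7.69% of all genes were higher at that level, and 10 of 13 had a log2 fold change of at least 1, against 8.5% of all genes. The median was 1.19 (range 0.73 to 1.78), and that of all genes was 0.046. The 13 genes moved as a unit within a mouse: all 13 were higher in Ifngr1_KO in each of mice 3 and 5 to 9, and all 13 lower in mice 2 and 4. They share 1 genome and its precursors, so they are not 13 replicates. DESeq2 called 12 of the 13, all but mt-Co3, each higher, where it called 4.95% of all genes higher, and limma-voom with quality weights called mt-Nd3 and mt-Atp8 higher, as it did 1.75% of all genes. Without mouse 4 edgeR called mt-Nd4, mt-Nd4l, mt-Cytb, mt-Atp6 and mt-Atp8 (adjusted p = 0.0307 to 0.0495; 0.459% of all genes called higher), and without mouse 2 it called mt-Nd4l and mt-Atp8 (adjusted p = 0.0429 and 0.0233; 0.51%). Without the mouse block it called mt-Atp8 alone (log2 fold change 1.64, adjusted p = 0.0384; 0.528%). Without mouse 7 it called 0 of 13, with a median of 0.99.

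**Figure D2:**
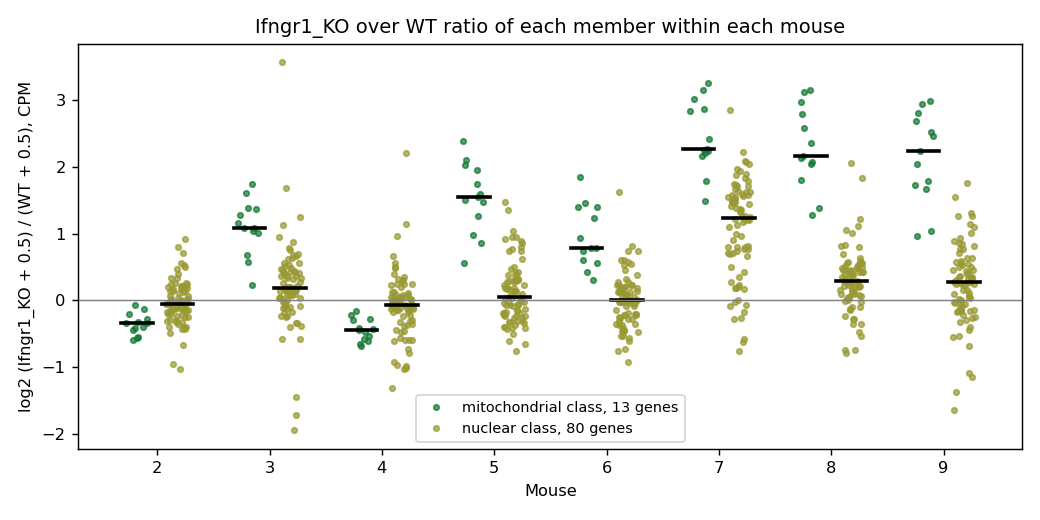
log2 ratio of Ifngr1_KO over WT for each member in each mouse, with 0.5 CPM added to each level, mitochondrial genes in dark green and nuclear genes in olive; black bars are medians. All mitochondrial points lie below 0 in mice 2 and 4 and above 0 in the other mice, while the nuclear medians stay between -0.07 and 0.29 except in mouse 7, where the median is 1.23.

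The ATP synthase and complex I genes mt-Atp8, mt-Nd4l, mt-Atp6 and mt-Nd4 had the 4 highest fold changes of the class, and they are 2 pairs of neighbours whose reading frames overlap. The overlaps are printed because a read from them cannot be given to either gene alone (mm10, plus strand, 5′ to 3′). In the first, at chrM:7927-7969, capitals mark the start codon of mt-Atp6 and the stop codon of mt-Atp8.

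mt-Atp8 and mt-Atp6 overlap: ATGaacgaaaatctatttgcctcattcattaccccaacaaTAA

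In the second, at chrM:10155-10185, capitals mark the 7 bases shared by the end of mt-Nd4l and the start of mt-Nd4.

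mt-Nd4l and mt-Nd4 overlap: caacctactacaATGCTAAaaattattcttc

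mt-Atp8 and mt-Atp6 encode small and channel-forming membrane subunits of complex V, respectively. The lowest, median and highest levels of mt-Atp8 were 77.2, 188 and 631 CPM in WT and 199, 739 and 1209 CPM in Ifngr1_KO. Its fitted log2 fold change was 1.78 (SE 0.44, adjusted p = 0.0645). The Ifngr1_KO library of mouse 2 lay within the range of WT and the WT library of mouse 4 within that of Ifngr1_KO, so the groups overlapped, as they did for all 13 genes. mt-Atp6 had 74.7, 220.3 and 629.8 CPM in WT and 232, 706 and 1777 CPM in Ifngr1_KO in the same order, with a log2 fold change of 1.63 (SE 0.47, adjusted p = 0.105). Each of the 13 genes was higher in Ifngr1_KO in 6 of 8 mice.

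The 7 mitochondrial genes of complex I encode the proton-pumping membrane arm. mt-Nd4 had 459 ± 333 CPM in WT against 1347 ± 781 CPM in Ifngr1_KO (SD, n = 8), with a log2 fold change of 1.62 (SE 0.46, adjusted p = 0.103). mt-Nd4l had 42.9 ± 33.4 CPM in WT against 126 ± 72.2 CPM in Ifngr1_KO and a log2 fold change of 1.65 (SE 0.47, adjusted p = 0.0998). For mt-Nd1, whose product lies at the junction of the membrane and the peripheral arm, the lowest, median and highest levels were 206, 507 and 1152 CPM in WT and 385, 1246 and 2556 CPM in Ifngr1_KO, and its fitted log2 fold change 1.31 (SE 0.39, adjusted p = 0.115). These 3 genes shared the pattern of the sum, with WT highest in mouse 4 and Ifngr1_KO highest in mouse 7. mt-Nd2 and mt-Nd3 had log2 fold changes of 1.19 (SE 0.36) and 1.10 (SE 0.31), and mt-Nd5 had 0.81 (SE 0.27). mt-Nd6, the one gene of the 13 that lies on the other strand, had 61.1 ± 33.2 CPM in WT against 157 ± 118 CPM in Ifngr1_KO and a log2 fold change of 1.22 (SE 0.39, adjusted p = 0.144). Its 3′ end overlaps that of mt-Nd5, and the library preparation does not mark strand, so reads there cannot be told apart. Over the rest of mt-Nd6, RNA of the opposite strand would also be counted as mt-Nd6. Its value is therefore no separate measure of its own strand. mt-Ts1, a transfer RNA gene on the strand opposite mt-Co1, had 169 ± 47.3 CPM in WT against 371 ± 226 CPM in Ifngr1_KO. The strand from which these counts came was not tested.

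mt-Cytb, the heme-bearing core of complex III, had a lowest, median and highest level of 451, 851 and 2177 CPM in WT and 682, 2151 and 3532 CPM in Ifngr1_KO. Its log2 fold change was 1.15 (SE 0.34, adjusted p = 0.113). In complex IV, mt-Co1 holds the site where oxygen is reduced, mt-Co2 takes electrons from cytochrome c, and mt-Co3 completes the core. Their fold changes were among the lower ones of the class. mt-Co1 had 1049, 1494 and 2740.3 CPM in WT and 872, 2727 and 4568 CPM in Ifngr1_KO and a log2 fold change of 0.73 (SE 0.24, adjusted p = 0.148). mt-Co2 had 1.06 (SE 0.33, adjusted p = 0.140), and mt-Co3 had 0.82 (SE 0.34, adjusted p = 0.255). The 2 ribosomal RNAs of the mitochondrion, which are not members, showed a similar size, with log2 fold changes of 1.41 (SE 0.41) for mt-Rnr1 and 1.25 (SE 0.38) for mt-Rnr2, each higher in Ifngr1_KO in 6 of 8 mice.

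Near-identical copies of these genes in the nuclear genome held a large part of their counts. A model of the annotation was taken as a copy if it matched a member's transcript in sense at 95% identity or more over 90% or more of its own length. By that rule 11 models copied 9 mitochondrial genes and held 39.6% of the counts of the class and its copies together. Of the copies' counts, 98.8% fell in 3 neighbouring pseudogene models on chromosome 1. Gm10925 (chr1:24613974-24614651, minus strand) held 572622 counts over the 16 libraries, against 113824 for mt-Atp6. Gm28437 held 492984, against 159486 for mt-Co3. Gm29216 held 429153, against 513539 for mt-Co1. A further model, Gm28661, held 16957 counts beside 291410 for mt-Co2, while Gm28438, a copy of mt-Nd3, held 745 and Gm13340, a longer copy of mt-Co1 on chromosome 2, held 320.

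Gene and copy are the same, or nearly so, over the stretch that a copy covers. For mt-Co1 and Gm29216 that stretch is 483 of the gene's 1545 bases. Gm10925 matched mt-Atp6 over 678 bases with 0 differences and ended before the stop codon, so that within this model no base tells gene and copy apart. The last bases of both are printed in the direction of the messenger, from chrM:8575-8607 and from chr1:24613974-24614003 on the minus strand of mm10. Capitals mark the bases that the copy model lacks.

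mt-Atp6 end: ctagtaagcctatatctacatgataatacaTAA

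Gm10925 end: ctagtaagcctatatctacatgataataca

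Gm28437 matched mt-Co3 over 783 bases and Gm28661 matched mt-Co2 over 681, each with 0 differences. Gm29216 matched the last 483 bases of mt-Co1 with 1 difference, A1066T, counted from the 5′ end of the mt-Co1 transcript with its base first. With the counts of its copy added, mt-Atp6 had 1465 ± 1139 CPM in WT against 4569 ± 2499 CPM in Ifngr1_KO (SD, n = 8), and its log2 fold change was 1.75 in place of 1.63. mt-Co3 had 0.95 in place of 0.82, and mt-Co1 had 0.78 in place of 0.73. The share of mt-Atp6 counts held by the copy was 80.2 to 86.3% in WT and 80.3 to 86.6% in Ifngr1_KO, nearly the same range. With copies, the class held 0.967% of all counts in WT and 2.33% in Ifngr1_KO, and none of the 13 genes was called.

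**Figure D3:**
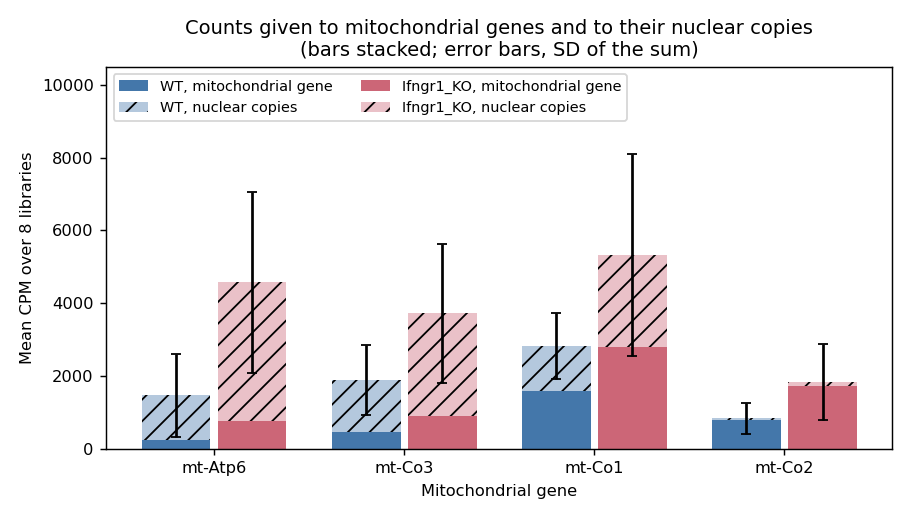
Mean CPM over 8 libraries given to 4 mitochondrial genes (solid) and to their nuclear copies (hatched, stacked on top), for WT in blue and Ifngr1_KO in red; error bars are the SD of the sum. The copies hold most of the counts of mt-Atp6 and mt-Co3, 83.4% and 75.6%, and few of those of mt-Co2, 5.52%.

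Levels between genes were compared per kilobase of exon. The order depended on the copies. Without them mt-Co2 had the highest mean in WT, 1176 against 590.5 for mt-Co3, and mt-Atp8 the highest in Ifngr1_KO, 3479.8 against 1105 CPM per kilobase for mt-Atp6. With copies added, mt-Co3 had the highest mean in WT and mt-Atp6 the highest in Ifngr1_KO. mt-Co3 had 2409 ± 1232 in WT and 4752 ± 2439 in Ifngr1_KO (CPM per kilobase; SD, n = 8), and mt-Atp6 had 2151 ± 1672 in WT and 6709 ± 3669 in Ifngr1_KO. mt-Co1 followed with 1826 ± 588 in WT and 3445 ± 1803 in Ifngr1_KO. In WT the order then ran through mt-Co2, mt-Atp8, mt-Cytb, mt-Nd1, mt-Nd2, mt-Nd4, mt-Nd5, mt-Nd4l and mt-Nd6 to mt-Nd3, with 90.02 ± 46.1. Every difference between neighbours in this order was smaller than the larger SD of the pair. The nuclear members ran from 0.813 to 321 CPM per kilobase in WT, with a median of 12.1. Cox8a, a small subunit of complex IV, was the highest of them.

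The make-up of the class was not the same in the means of the genotypes. With copies added, mt-Co1 took 29.9 ± 7.29% in WT and 23.2 ± 1.85% in Ifngr1_KO of the class's counts (SD, n = 8), lower in Ifngr1_KO in 7 of 8 mice, all but mouse 4. mt-Co3 took 18.4 ± 2.22% in WT and 16.3 ± 1.10% in Ifngr1_KO, lower in 8 of 8. mt-Atp6 took 13.4 ± 3.39% in WT and 19.7 ± 1.24% in Ifngr1_KO, higher in 7 of 8, again all but mouse 4. The WT shares of mt-Atp6 were 18.1% in mouse 2 and 19.3% in mouse 4, near the Ifngr1_KO shares of 17.9 to 21.1%, and 10.2 to 13.1% in the other 6 mice. Mice 2 and 4 are those in which the whole class was lower in Ifngr1_KO. Shares within a class are bound to each other, so a higher share of mt-Atp6 needs a lower share elsewhere. Without copies the share of mt-Atp6 was 3.71 ± 0.968% in WT and 5.24 ± 0.841% in Ifngr1_KO, that of mt-Atp8 3.37 ± 0.968% in WT and 5.18 ± 0.465% in Ifngr1_KO and that of mt-Nd4 6.87 ± 1.74% in WT and 9.58 ± 0.754% in Ifngr1_KO, each higher in 7 of 8 mice. The share of mt-Co1 was then 27.3 ± 6.41% in WT and 21.2 ± 2.24% in Ifngr1_KO, and that of mt-Co3 was lower in 4 of 8 mice, so the result for mt-Co3 depended on the copies. These shares were described and not tested.

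**Figure D4:**
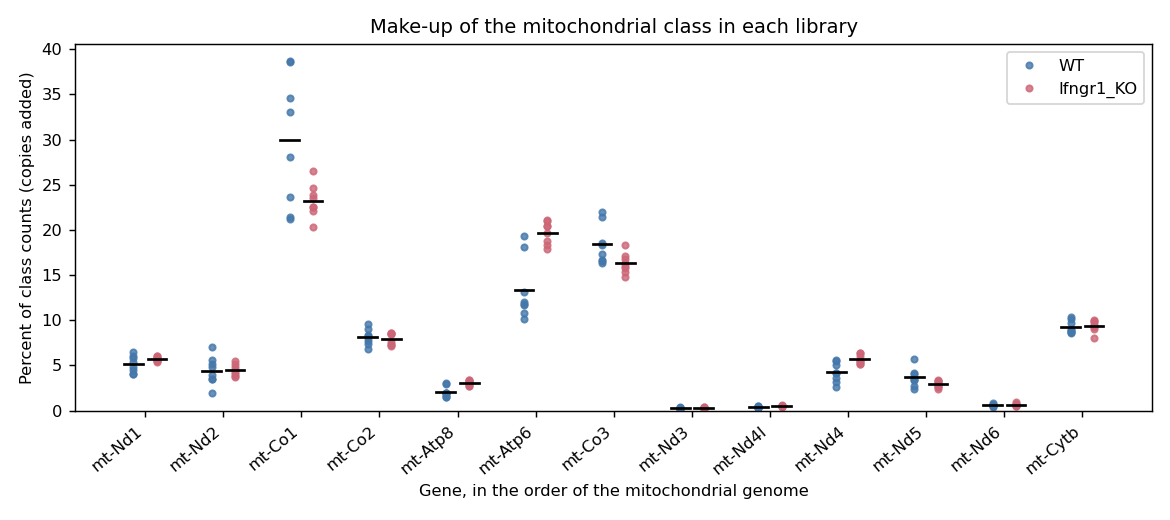
Share of each gene, with its copies, in the counts of the mitochondrial class, per library, with WT in blue, Ifngr1_KO in red and black bars for means over 8 libraries; genes stand in their order on the mitochondrial genome. mt-Co1 is lower and mt-Atp6 higher in Ifngr1_KO on average, and the 2 highest WT shares of mt-Atp6 belong to mice 2 and 4.

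The summed level of the nuclear class was close between genotypes in 7 of 8 mice and far apart in mouse 7. From mouse 2 to mouse 9, its summed level in WT was 3177, 2840.2, 3254, 3905, 3615, 3425, 3008 and 2902 CPM. In Ifngr1_KO it was 3184, 3072, 3061, 4024, 3448, 6961, 3444 and 3559 CPM in the same order. The WT libraries lay close together, as did 7 of the Ifngr1_KO libraries, and that of mouse 7 stood above them all. The log2 ratio within mice averaged 0.19 ± 0.36 (SD, n = 8) and 0.07 ± 0.14 without mouse 7 (n = 7). Of the 80 genes, 71 were higher in Ifngr1_KO in mouse 7 and 32 to 64 in the other mice. Summed marker lists of other cells also stood apart in that library. The Kupffer cell and monocyte list summed to 2707 CPM, the lowest of the 16 libraries, against 5343 CPM in WT of that mouse. Within it Adgre1 had 15.7 CPM against 78.3 CPM in WT. Ly6c2 had 1106 CPM, the highest Ifngr1_KO level, against 1283 CPM in WT. The erythroid and platelet list summed to 891 CPM, the highest of the 16, against 249.6 CPM. The T and NK cell list summed to 30.2 CPM, also the highest, against 12.8 CPM. The part of these markers in the nuclear result was not tested.

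None of the 80 nuclear members was called in either direction, against 2.8% of all genes. At an unadjusted p under 0.05 there were 12 (11 higher, 1 lower), a share of 15% beside 16.3% of all genes. By direction, 758 of all 9851 genes (7.69%) were higher at that level and 844 lower. The fitted log2 fold change was above 0 for 67 of 80, against 53.2% of all genes, with a median of 0.25 (range -0.77 to 1.15). Without mouse 7 it was above 0 for 56 of 80, with a median of 0.11. Higher in Ifngr1_KO in at least 7 of 8 mice were 15 of the 80, against 10.2% of all genes, and 5 were higher in 8 of 8, against 2.76%. A further 3 had the reverse pattern, higher in at most 1 mouse, against 11.7%. In no member of either class did the 2 groups of 8 libraries separate, but the share of all genes that separate was not counted. DESeq2 called Ndufa13, Uqcr11, Cox5a and Atp5mpl higher, 5% of the class beside 4.95% of all genes. limma-voom with quality weights called Uqcr11 higher and Ndufs4 lower (6.06% of all genes called in either direction), edgeR without mouse 7 called the same 2 (4.12% of all genes called), and edgeR with library totals called Uqcr11 higher (1.04%).

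**Figure D5:**
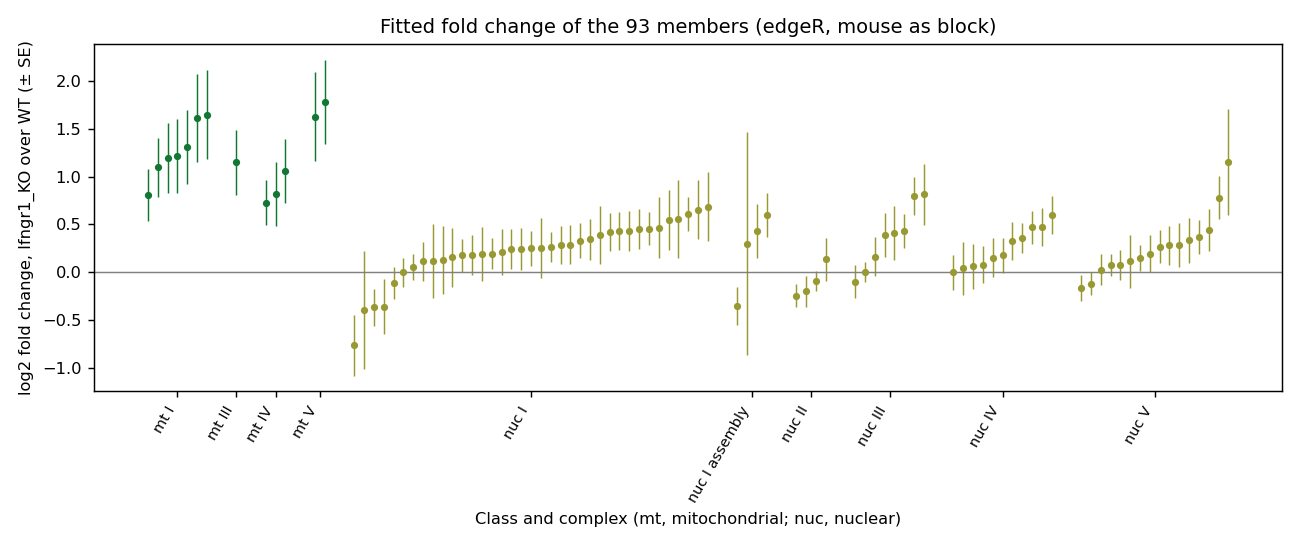
Fitted log2 fold change of Ifngr1_KO over WT with its SE for all 93 members, from edgeR with mouse as a block, grouped by class and complex and ordered by size within each; dark green is mitochondrial and olive is nuclear. The mitochondrial genes lie between 0.73 and 1.78, and most nuclear genes between 0 and 0.5, with complex II around 0.

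Complex I contributed 37 nuclear subunits, with a median log2 fold change of 0.25, and 32 were above 0 (0.15 and 29 without mouse 7). Ndufb9, Ndufa3 and Ndufa1, accessory subunits, had the highest levels per length. Ndufb9 had 98.6 ± 15.8 CPM in WT against 106 ± 38.0 CPM in Ifngr1_KO (SD, n = 8) and a log2 fold change of 0.05 (SE 0.14, adjusted p = 0.885). Ndufa3 had 0.34 (SE 0.21, adjusted p = 0.458), and Ndufa1 had 0.45 (SE 0.21, adjusted p = 0.323). In Ifngr1_KO mouse 7 was the highest library for all 3, and without that mouse Ndufb9 had -0.06, Ndufa3 0.15 and Ndufa1 0.28. Among the genes named after their values were seen, Ndufa13, also known as Grim19, had 47.4 ± 12.2 CPM in WT against 75.0 ± 32.3 CPM in Ifngr1_KO and a log2 fold change of 0.61 (SE 0.18, adjusted p = 0.116). Ndufs7, which carries the last iron-sulfur cluster before ubiquinone, had 0.46 (SE 0.17, adjusted p = 0.215) and was higher in 8 of 8 mice.

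Ndufs4, an accessory subunit of the peripheral arm whose loss in mice causes a form of Leigh syndrome, had the most negative fold change of the class. Its lowest, median and highest levels were 13.2, 18.9 and 26.5 CPM in WT and 3.80, 11.5 and 31.2 CPM in Ifngr1_KO, with a log2 fold change of -0.77 (SE 0.32, adjusted p = 0.255). It was lower in Ifngr1_KO in 7 of 8 mice, the exception being mouse 7, where the Ifngr1_KO library had the highest level of all 16. Without mouse 7 the log2 fold change was -1.02 (adjusted p = 0.0314), and limma-voom with quality weights gave -0.91 (adjusted p = 0.0329). Ndufa12, another accessory subunit, was also lower in 7 of 8 mice, at -0.36 (SE 0.29, adjusted p = 0.570). Both were named after their values were seen.

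The 4 assembly factors of complex I that were members had a median of 0.36, which ranged from 0.08 to 0.56 with 1 mouse left out and was 0.14, 0.08 and 0.12 without mouse 3, 5 and 7. Ndufaf7, a methyltransferase that modifies a complex I subunit, had the highest level of them with 40.6 ± 5.58 CPM in WT against 33.1 ± 9.57 CPM in Ifngr1_KO and a log2 fold change of -0.35 (SE 0.20, adjusted p = 0.416). Ndufaf8 had 0.43 (SE 0.28, adjusted p = 0.484), or 0.24 without mouse 7, and Ndufaf3 0.60 (SE 0.23, adjusted p = 0.223). Ndufaf1, at the edge of the count rule, ranged from 0 to 8.97 CPM and had 0.30 (SE 1.17, adjusted p = 0.924). Ndufa5, a subunit at the same edge, had -0.40 (SE 0.62, adjusted p = 0.791). Without mouse 7 Ndufaf1 had -0.00228 and Ndufa5 -0.60. These 2 low genes changed sign with the processing and carry no direction.

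Complex II, succinate dehydrogenase, has no mitochondrially encoded subunit, and its 4 genes had a median of -0.15, the one negative median among the complexes. Sdhd, a membrane anchor, had 89.8 ± 6.39 CPM in WT against 76.9 ± 14.8 CPM in Ifngr1_KO (SD, n = 8) and a log2 fold change of -0.24 (SE 0.12, adjusted p = 0.337), lower in Ifngr1_KO in 7 of 8 mice. Sdha, the flavoprotein that oxidizes succinate, had -0.20 (SE 0.16, adjusted p = 0.579), or -0.12 without mouse 7, and Sdhb, the iron-sulfur subunit, had -0.09 (SE 0.11, adjusted p = 0.702), or 0.02 with library totals in place of TMM. Sdha was lowest of each group in mouse 7, at 45.1 and 26.5 CPM, whereas Sdhd reached its highest level in the Ifngr1_KO library of that mouse.

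Complex III had the highest median of the nuclear complexes, 0.40 over 8 genes, and 0.21 without mouse 7. Uqcr11, a small accessory subunit, had the smallest p of the nuclear class. Its lowest, median and highest levels were 20.2, 24.8 and 36.2 CPM in WT and 29.7, 41.0 and 108 CPM in Ifngr1_KO, and it was higher in Ifngr1_KO in 8 of 8 mice. The groups overlapped, with the Ifngr1_KO library of mouse 7 far above the rest. Its fitted value was 0.80 (SE 0.20, adjusted p = 0.0645) on the log2 scale, and without mouse 7 it was 0.64 (adjusted p = 0.0410). Uqcr10 and Uqcrh, the other small subunits of high level, had 0.39 (SE 0.23, adjusted p = 0.429) and 0.16 (SE 0.20, adjusted p = 0.726), and without mouse 7 they had 0.18 and -0.03. Uqcrfs1, the Rieske iron-sulfur protein, had 0.81 (SE 0.32, adjusted p = 0.233) at a low level of 8.88 ± 7.22 CPM in WT against 13.5 ± 8.52 CPM in Ifngr1_KO. In mouse 9 it was at 0.376 CPM in WT and 0.386 CPM in Ifngr1_KO. Uqcrq had 0.43 (SE 0.18, adjusted p = 0.260), or 0.27 without mouse 7. Uqcrfs1 and Uqcrq were both named after their values were seen.

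Complex IV is the complex for which mammals keep tissue forms of several subunits, and the neutrophil libraries held the ubiquitous ones. Cox4i1, the main form of a regulatory subunit, had 144, 173 and 221 CPM in WT and 171, 209 and 533 CPM in Ifngr1_KO as its lowest, median and highest levels, and was higher in Ifngr1_KO in 8 of 8 mice, with a log2 fold change of 0.47 (SE 0.18, adjusted p = 0.212). Cox4i2, its hypoxia-responsive counterpart, had 6 counts over 16 libraries. Cox6a1 had 98.3 ± 24.1 CPM in WT against 131 ± 56.4 CPM in Ifngr1_KO and a log2 fold change of 0.36 (SE 0.16, adjusted p = 0.300), while Cox6a2, the form of heart and skeletal muscle, had 103 counts in all. Cox6b1 had 0.18 (SE 0.18, adjusted p = 0.667) beside 9 counts for Cox6b2, and Cox8a had 0.33 (SE 0.20, adjusted p = 0.454) beside 0 counts for Cox8b. The liver form Cox7a2 had -0.000452 (SE 0.18, adjusted p = 0.999) and its relative Cox7a2l 0.08 (SE 0.19, adjusted p = 0.869), while the muscle form Cox7a1 had 56 counts. Without mouse 7 Cox6a1 had 0.24, Cox6b1 0.00320, Cox8a 0.14, Cox7a2l -0.06 and Cox7a2 -0.17 (SE 0.10). The value of Cox7a2 took either sign among the alternatives. The median of the 11 genes was 0.18, and 0.08 without mouse 7, with 7 of 11 above 0. Cox5a and Cox6c, named after their values were seen, had 0.60 (SE 0.20, adjusted p = 0.161) and 0.47 (SE 0.20, adjusted p = 0.260), the latter 0.31 without mouse 7. Cox5a had 18.4 ± 11.8 CPM in WT against 26.0 ± 17.4 CPM in Ifngr1_KO. It was low in WT and Ifngr1_KO of mouse 9 (1.07 and 3.24 CPM) and mouse 5 (5.60 and 6.89 CPM).

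Complex V contributed 16 nuclear genes with a median of 0.23, and 0.10 without mouse 7, with 11 of 16 above 0. The catalytic core genes had fold changes near 0: Atp5b, the beta subunit, had 413 ± 85.2 CPM in WT against 375 ± 57.0 CPM in Ifngr1_KO and a log2 fold change of -0.12 (SE 0.12, adjusted p = 0.652). Atp5a1, the alpha subunit, had -0.16 (SE 0.14, adjusted p = 0.585), and Atp5c1, the rotating gamma subunit, had 0.15 (SE 0.14, adjusted p = 0.620). Without mouse 7 Atp5b had -0.05 and Atp5a1 -0.11. Atp5mpl, a small membrane subunit named after its values were seen, had 9.84, 15.8 and 20.2 CPM in WT and 13.8, 25.9 and 73.8 CPM in Ifngr1_KO as its lowest, median and highest levels and a log2 fold change of 0.78 (SE 0.23, adjusted p = 0.109), higher in Ifngr1_KO in 8 of 8 mice. The highest fold change of the class, 1.15 (SE 0.55), belonged to Atp5g2, one of the genes for the c subunit of the rotor. Its processed copy Gm10175 held 79.1% of their joint counts, and with the copy added the log2 fold change was 0.46 (SE 0.24). Over the nuclear class, 34 copies of 19 genes held only 2.71% of counts, and copies held over 10% for 7 genes, among them Ndufb4 (69.3%), Cox7c (55.5%) and Atp5l (45.4%).

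Promoters of the nuclear members were read for letters of factors known to serve respiratory genes, since these genes lie scattered over the genome. RefSeq windows of GRCm38.p6, from 250 bases before to 50 after a gene's start, were matched for 68 of the 80 by symbol. The letters of NRF1, a factor of nuclear respiratory genes, were searched as GCGCANGCG on both strands and found in 20 of 68 (29.4%), against 15.9% of 7263 tested genes and 6.25% of all 32851 windows. The YY1 letters AAGATGGCG were found in 11.8% of the 68 and 4.19% of tested genes, the ETS letters CCGGAAG in 26.5% and 22.3%, and the TATA letters TATAAA in 7.35% and 9.13%, all on both strands. None of these sets of letters contains another. Stretches of 49 bases around the NRF1 letters, in capitals and on either strand, are printed for Sdhd, Uqcr11, Cox6a1 and Atp5c1, named above and each from another complex. They are written in the direction of the gene, which is the minus strand for all 4, from chr9:50603900-50603948, chr10:80406798-80406846, chr5:115349092-115349140 and chr2:10080421-10080469.

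Sdhd promoter: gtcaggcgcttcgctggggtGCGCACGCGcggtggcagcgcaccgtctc

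Uqcr11 promoter: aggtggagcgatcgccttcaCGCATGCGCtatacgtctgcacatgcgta

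Cox6a1 promoter: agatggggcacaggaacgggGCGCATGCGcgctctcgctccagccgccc

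Atp5c1 promoter: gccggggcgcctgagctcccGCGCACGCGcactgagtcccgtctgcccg

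The 20 members with the NRF1 letters had a median log2 fold change of 0.19 and the 48 without them 0.28. A match describes letters in a window and is no measured site.

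The distance between the classes was present in the same 6 mice. The log2 ratio of the mitochondrial sum minus that of the nuclear sum was, from mouse 2 to mouse 9, -0.41, 0.81, -0.35, 1.47, 0.99, 1.19, 1.85 and 1.44. Its mean was 0.87 ± 0.84 (SD, n = 8), above 0 in 6 of 8 mice and about as large as its own spread. Mouse 7, in which the nuclear class was also high, had a difference of 1.19, within the range of the other 5 of the 6. The mitochondrial sum was 0.985 to 3.96 times the nuclear sum in WT libraries and 1.30 to 4.83 times in Ifngr1_KO libraries, and these ranges overlapped. The difference of the class medians in the fit was 0.94, and 0.78 to 1.12 with any 1 mouse left out.

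Other genes that build or serve mitochondria were read from lists. Of all genes, 16.3% had an unadjusted p under 0.05, the share to set beside the counts of each list. The list for expression of mitochondrial DNA (its polymerases, transcription and RNA processing factors) had 26 tested genes, of which 0 were called (1 at an unadjusted p under 0.05), and a median log2 fold change of 0.11, which was 0.02 to 0.37 with 1 mouse left out and 0.20 without mouse 7. Its summed level was higher in Ifngr1_KO in 7 of 8 mice. Polg, the DNA polymerase of mitochondria and the gene of highest level there, had -0.14 (SE 0.39, adjusted p = 0.891), and 0.09 without mouse 7. Of 73 tested genes of the mitochondrial ribosome, which translates the 13 messengers, 1 was called higher (0.477% of all genes) and 0 lower, with a median of 0.26. That gene was Mrpl52, with 19.0, 35.1 and 59.5 CPM in WT and 53.6, 66.4 and 148 CPM in Ifngr1_KO as lowest, median and highest levels and a log2 fold change of 1.04 (SE 0.20, adjusted p = 0.0193), higher in 8 of 8 mice. The Mrpl52 groups overlapped. The summed level of the list was nearly equal in mice 2 and 4 (763 and 697 CPM in WT, 765 and 700.3 in Ifngr1_KO) and higher in Ifngr1_KO in the other 6. The log2 ratio of the sums averaged 0.29 ± 0.36 (SD, n = 8), and 0.17 ± 0.15 without mouse 7, and in mouse 7 it was 1.12. The call of Mrpl52 was lost without mouse 3 or mouse 9 (adjusted p = 0.0546 and 0.0579).

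No regulator of mitochondrial biogenesis and no gene of the tricarboxylic acid cycle was called. The 13 tested regulators of biogenesis had a median of -0.49, with 5 above 0, and 0 calls (2 at an unadjusted p under 0.05, both lower). The median was -0.50 to -0.17 with 1 mouse left out, smallest without mouse 7 and next without mouse 3 (-0.27) and mouse 9 (-0.31), and their sum was lower in Ifngr1_KO in 8 of 8 mice. Most of that sum was Nfe2l2, which encodes the antioxidant regulator NRF2, with 738 ± 116 CPM in WT against 642 ± 96.4 CPM in Ifngr1_KO (SD, n = 8) and a log2 fold change of -0.20 (SE 0.08, adjusted p = 0.253). The 22 tested genes of the tricarboxylic acid cycle, which supplies the chain with electrons, had a median of -0.32 with 6 above 0, or -0.20 without mouse 7, and 0 calls (3 at an unadjusted p under 0.05, all lower). Their sum was lower in Ifngr1_KO in 7 of 8 mice. Mdh2, the gene of highest level among them, had -0.01 (SE 0.09, adjusted p = 0.966), or -0.04 without mouse 7. Of 54 other chain and assembly genes, 0 were called (7 at an unadjusted p under 0.05), with a median of 0.08, or -0.01 without mouse 7, and the proton carrier Ucp2, their most abundant transcript, had -0.10 (SE 0.09, adjusted p = 0.635).

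Among 16 tested genes of the mitochondrial stress response 1 was called higher, Gdf15, a stress-induced cytokine, where 0.477% of all genes were. Gdf15 rose from 18.7 ± 15.03 to 71.2 ± 56.3 CPM (SD, n = 8), with a log2 fold change of 1.94 (SE 0.32, adjusted p = 0.00756). It was low in WT and Ifngr1_KO of mouse 5 (3.24 and 4.72 CPM) and mouse 9 (1.38 and 9.88 CPM). The list's median was 0.17 (0.05 to 0.23 with 1 mouse left out). Without the mouse block Gdf15 was not called (adjusted p = 0.162). Of 17 genes of mitophagy and fusion 0 were called (4 at an unadjusted p under 0.05), and Fis1, a receptor of the fission machinery, had 0.23 (SE 0.14, adjusted p = 0.438), or 0.13 without mouse 7. Of 10 tested markers of Kupffer cells and monocytes, Ly6c2 and Adgre1 were called lower, at log2 fold changes of -0.73 and -1.11. Of 7 tested markers of B and plasma cells, Ighm was called lower, at -1.75. Each of these genes was lower in 8 of 8 mice, and 2.32% of all genes were called lower. The Kupffer and monocyte list had a median of -0.12, with 3 genes above 0 and 7 below. The summed levels of these 2 lists were lower in Ifngr1_KO in 8 of 8 mice, mice 2 and 4 included. Most of the B and plasma cell sum, with means of 226 CPM in WT and 92.1 CPM in Ifngr1_KO, was Ighm. Ighm alone had means of 198 and 57.6 CPM. The median of the B and plasma cell list was 0.24, with 4 of 7 tested genes above 0, and -0.10 without mouse 7. The neutrophil list had Ngp, Cxcr4 and Ltf called lower among 19 tested, where 2.32% of all genes were called lower, with a median of -0.26 and 14 below 0. Without mouse 7 there were 6 called lower, in a fit that called 334 of all 9997 tested genes lower. None of the 3 calls held without the mouse block (adjusted p = 0.447, 0.0779 and 0.278). Ltf also lost its call with library totals (0.0549) and without mouse 3, 6, 8 or 9 (0.0584 to 0.0709). The lists of T and NK cells, erythroid cells and platelets, and endothelial and stellate cells had 0 called of 4, 8 and 3 tested, each also 0 at an unadjusted p under 0.05. The part of these cells in the respiratory chain results was not tested.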

How the data were processed

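The deposited table holds estimated counts per gene, whole numbers, with 1 column per library and no scaling between libraries. The submitters' processing notes name Salmon 0.14.2, DESeq2 1.22.1 and build mm10. The role of each tool, the transcript annotation and any filter are not stated there. By the labels' protocols, 1 ng of RNA was primed with oligo-dT in the SMARTseq V4 workflow, amplified in 13 cycles and made into NexteraXT libraries. No molecular tags are mentioned, so counts include PCR copies.

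Genes were named from the GENCODE annotation of mm10. Low genes were removed with filterByExpr, leaving 9851, and libraries were scaled by TMM. Genotype was tested with glmQLFit and glmQLFTest of edgeR 4.0.16 (R 4.3.3, robust setting), with a term for mouse, and p-values were adjusted by Benjamini-Hochberg at 0.05. The SE was derived from the fold change and F. The series design pairs the libraries by mouse. Deviations from group means correlated at 0.160 on average within a mouse (0.0320 to 0.383) and at -0.0211 between mice. Totals were 12482326 to 21725277 counts. The procedure was also run on counts simulated from the mean levels, library sizes and dispersions of these data. That simulation held no mouse effect and no library set apart like that of mouse 7, so it cannot test the pairing.

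Copies were found with BLAST+ 2.17.0 (95% identity over 90% of the copy, sense). Promoter windows came from RefSeq (GRCm38.p6). Named were all mitochondrial members, called nuclear members, the 3 of highest level per length in each nuclear group, tissue forms, members at the count limit, and of each list up to 3 called genes or its most abundant one. Genes outside that rule are marked as named after their values were seen. Members, lists and tests were chosen with earlier results of these data known. Alternatives were a fit without the mouse term, DESeq2 size factors, library totals, scaling without mitochondrial genes, 2 other count filters, DESeq2 1.42.0, limma-voom (limma 3.58.1) with quality weights, each mouse left out, and copies added to their genes, the last chosen after seeing the data.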

Additional observations from a re-analysis of the deposited data

Results flagged for a closer look

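The highest or lowest of 8 libraries was marked where its gap to the nearest other one exceeded 0.526 of the group's range (Dixon's critical value). Of 110 groups of 8 values, 37 were marked, and chance alone marks about 1 in 20. The groups share libraries, and 27 of the marks belong to mouse 7.

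The Ifngr1_KO library of mouse 7 was the highest of its group in summed CPM, with the next library in brackets: 6961 for nuclear class (4024), 2189.8 for nuclear complex I (1163), 93.8 for nuclear complex I assembly (64.8), 625.5 for nuclear complex III (399), 2328 for nuclear complex IV (1119.7) and 1452 for nuclear complex V (1044). The log2 ratio of the nuclear class in that mouse was 1.02, and the next was 0.29. Among complex I genes its CPM were 191 for Ndufb9 (116), 247 for Ndufa3 (96.7), 82.2 for Ndufa1 (32.0), 19.7 for Ndufaf8 (10.5), 6.02 for Ndufa5 (2.42), 31.2 for Ndufs4 (14.7) and 112 for Ndufs7 (61.5). In complex III they were 92.7 for Uqcr10 (38.8), 108 for Uqcrh (50.0) and 116 for Uqcrq (59.6). In complexes IV and V they were 636 for Cox8a (291), 285 for Cox6b1 (137), 263 for Cox6a1 (141), 533 for Cox4i1 (289), 156 for Cox7a2 (70.1), 58.6 for Cox7a2l (32.4), 73.8 for Atp5mpl (29.2) and 86.7 for Cox6c (44.7). Among mitochondrial genes they were 423 for mt-Nd6 (196) and 2239.9 for mt-Co3 (1178).

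The WT library of mouse 4 was the highest WT library in mitochondrial transcripts, with CPM of 12891 for mitochondrial class (7237), 1214 for mt-Nd4 (538), 121 for mt-Nd4l (45.0), 2177 for mt-Cytb (1026), 1690.2 for mt-Co2 (972), 629.8 for mt-Atp6 (289) and 631 for mt-Atp8 (271). In the WT library of mouse 9 Atp5b was lowest of its group and Ndufaf1 highest, and in that of mouse 5 Ndufs7 was highest, with CPM of 226 for Atp5b (385), 8.97 for Ndufaf1 (3.38) and 55.9 for Ndufs7 (44.3). What sets these libraries apart was not tested.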

How the results depend on the processing

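The median log2 fold change stayed above 0 under all 17 alternatives for the mitochondrial class (0.99 to 1.42), the nuclear class (0.11 to 0.36) and their difference (0.78 to 1.12). Calls moved. The 276 calls among all genes became 1060 with DESeq2, 597 with limma-voom, 268 without the replicate block, and 163 (without mouse 3) to 412 (without mouse 7) with 1 mouse left out, with 169, 170 and 174 without mouse 6, 8 and 9. In the mitochondrial class 0 became 12 with DESeq2, 2 with limma-voom, 1 without the block and 0 to 5 with a mouse left out, 2 without mouse 2 and 5 without mouse 4. In the nuclear class 0 became 4 with DESeq2, 2 with limma-voom, 1 with library totals and 0 to 2 with a mouse left out, 2 without mouse 7. Library totals gave 102 higher and 164 lower genes in place of 47 and 229, and moved the median of all genes from 0.046 to 0.16. Removing the block changed the calls of mt-Atp8, Gdf15, Ngp, Cxcr4 and Ltf and of no other named gene.

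Of 1071 log2 fold changes of single genes under the alternatives, 990 kept sign and side of the threshold, 34 gained a call, 16 lost one and 31 changed sign, none at a called gene. The changed signs were with library totals 0.017 for Sdhb, 0.11 for Cox7a2, 0.099 for Mdh2 and 0.013 for Ucp2; with the filter of 10 counts in 8 libraries 0.0029 for Cox7a2; with DESeq2 size factors 0.0070 for Cox7a2; with DESeq2 0.0076 for Cox7a2; with mitochondrial genes left out of scaling 0.00082 for Cox7a2; without the replicate block 0.14 for Cox7a2, 0.015 for Ndufa5, -0.075 for Ndufaf1 and 0.17 for Polg; with copies added 0.00030 for Cox7a2; with limma-voom -0.57 for Ndufaf1 and 0.088 for Polg. With 1 mouse left out the ranges, and the mice whose removal turned the sign, were Ndufb9 -0.056 to 0.097 (mouse 7), Uqcrh -0.025 to 0.24 (mouse 7), Cox7a2 -0.17 to 0.072 (mouse 2, 3, 4, 5, 6 and 8), Cox7a2l -0.063 to 0.18 (mouse 7), Ndufaf1 -0.27 to 0.73 (mouse 3, 5 and 7), Polg -0.42 to 0.093 (mouse 2 and 7) and Mdh2 -0.042 to 0.025 (mouse 5 and 9). The causes were not tested. Depth limits low genes such as Ndufaf1 and Ndufa5, and identical copies limit the levels of single mitochondrial genes.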
